A study of Glycine max with 6 samples.

Results

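The sites of the soybean protein GLYMA.13G317000 described here are the places on the genome where its antibody enriched DNA in both biological replicates. They were taken from chromatin immunoprecipitation with sequencing (ChIP-seq), in which DNA crosslinked to a protein is recovered with an antibody and its fragments are mapped along the genome. A stretch where fragments pile up above background is called a peak, and the highest point of the pile is its summit. A site was defined as a peak of replicate 1 that overlapped a peak of replicate 2 by at least 50% of the shorter peak. There were 38273 such sites, out of 58036 peaks in replicate 1 and 41859 in replicate 2. The whole series held 213988 peaks in 4 lists, the other 2 lists being those of a further protein, GLYMA.06G314400.

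All samples were embryos of the cultivar Williams 82 at the early maturation stage, dissected from seeds of 6 to 7 mm, and the labels name no treatment and no altered allele in any group. Both replicates were precipitated with 2 µg of an antibody raised against a peptide that covers residues 1 to 15 of GLYMA.13G317000. An input of sheared, unprecipitated chromatin was sequenced for each of the 2 replicate numbers, and no peak list of the inputs was used here. Whole embryos were used, so the sites pool all embryonic cell types, and whether the antibody also recovered related proteins was not tested.

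At early maturation the soybean embryo passes from cell division and pattern formation to cell enlargement and the storage of protein and oil. Soybean chromosomes carry most of their genes in the arms, while the regions around the centromeres are rich in repeats. A protein held at a single place on the DNA gives a pile of fragments that is roughly symmetrical about that place, with a width set largely by the fragment length, whereas several nearby places or a spread of weak binding give wider or uneven piles. The sources used here give GLYMA.13G317000 no gene name or function.

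Read numbers were not analysed here, so the depth is unknown and the lack of a peak does not show that a place was unbound. The replicate 2 list was shorter, with a median peak width of 373 bp against 422 bp, and its peaks covered 17.3 Mb against 27.7 Mb. As only 2 lists of this protein exist, and peaks of a list are not independent replicates, the values below are descriptions without tests. Positions are those of the deposited lists, whose genome build none of the sources used here names, and no genes or sequences were assigned to the sites.

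Whether a peak recurred went with its strength. Of the replicate 1 peaks 65.9% recurred in replicate 2, and of the replicate 2 peaks 93.3% recurred in replicate 1. The strength of a peak is given here by its deposited fold enrichment, the ratio of its fragment pile to the local background as the authors' peak caller wrote it. In the weakest decile of replicate 1, ranked by fold enrichment, with a median fold enrichment of 2.95, 20.6% of peaks recurred. The share was 42.8% in the fourth decile, at a median of 4.42, and 82.2% in the sixth, at 6.05. It reached 99.5% in the eighth, at 9.49, and in the ninth and the strongest decile all 5803 and 5804 peaks recurred. Replicate 2 peaks recurred more often at like fold enrichments, which are each list's own values, from 75.8% in its weakest decile, at a median of 3.05, to all peaks in the ninth and the strongest. The lists also differ in length. With lists of equal length, 82.6% of replicate 1 peaks recurred, a share counted over a shortened replicate 1 list. The cause of the difference was not tested.

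**Figure D1:**
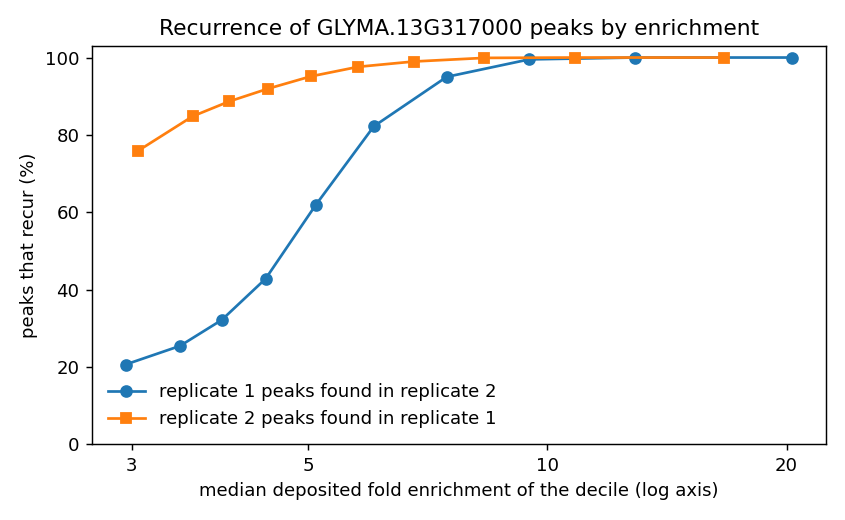
Share of peaks that recur in the other replicate (y axis, percent) against the median deposited fold enrichment (x axis, log scale) of each decile of the list, ranked by fold enrichment, for replicate 1 (circles) and replicate 2 (squares). Recurrence in replicate 1 climbs from 20.6% to 100% and in replicate 2 from 75.8% to 100%.

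The 19763 peaks of replicate 1 that did not recur were weaker and narrower than the sites. Their median fold enrichment was 3.78 (quartiles 3.26 and 4.46) and their median width 308 bp, and the strongest reached 10.6. Of these peaks, 19730 touched no replicate 2 peak at all and 33 met one by less than the limit. The median distance to the closest replicate 2 peak was 3348 bp. The strongest peak without a partner lay on a scaffold outside the numbered chromosomes, was 275 bp wide and had a replicate 2 peak 618 bp away. The next, on chromosome 10 from 44175859 to 44176749, had a fold enrichment of 9.90. Chromosome 20 held one of 9.77 (29022589 to 29023040), chromosome 6 one of 9.72 (11244088 to 11244600) and chromosome 7 one of 9.34 (15826174 to 15826651). Conversely, 2811 replicate 2 peaks had no partner, with a median fold enrichment of 3.61 and a highest of 8.11. Recurrence hardly varied among chromosomes, from 63.6% on chromosome 16 to 68.3% on chromosome 6.

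The overlap limit decided few cases. In 78.8% of the sites the shorter peak lay wholly inside the longer. The sites just inside the limit lay on chromosome 8 from 6597805 to 6598196, with 50.4% overlap and fold enrichments of 3.13 and 3.40 in replicates 1 and 2, and on chromosome 4 from 48847670 to 48847937, with 50.8% overlap and 2.76 and 2.42. Just outside it were peaks on chromosome 4 from 44627958 to 44628212, with 48.3% overlap and 2.86 and 3.04, and on chromosome 19 from 41870776 to 41871107, with 47.0% and 4.81 and 3.73. The peaks named here, 2 on either side of the limit, all had fold enrichments below 5 in both replicates.

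Most sites were moderately enriched, and strong ones were few. The median fold enrichment of the sites was 7.80 in replicate 1 (quartiles 5.31 and 12.3) and 5.67 in replicate 2 (quartiles 4.14 and 8.71). Taking the lower of both values as the strength of a site, the median was 5.39, 6972 sites (18.2%) had at least 10, 1040 (2.72%) had at least 20 and 110 had at least 30. The replicate 1 value was the higher one at 82.9% of sites.

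The 10 strongest sites lay on 9 chromosomes and each matched a single replicate 2 peak. Their lower fold enrichments ran from 37.1 to 44.5, their widths from 810 to 1371 bp, and their replicate summits were at most 56 bp apart. The strongest, on chromosome 18 from 2683094 to 2684464, was 1371 bp wide with a fold enrichment of 44.5 in replicate 1 and 44.6 in replicate 2. Its summits lay 3 bp apart, 34.8% along its width, and its nearer neighbour was 553 bp away. A further site on chromosome 18, from 55168982 to 55170148, had 44.3 and 39.8. On chromosome 15, the site from 26167185 to 26168069 had 41.7 and 38.2, with summits 9 bp apart in the middle of the peak, at 51.0% of its width. The site on chromosome 6 from 19160293 to 19161102, the narrowest of the 10, had 37.8 and 38.2.

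The surroundings of these strong sites differed widely. That on chromosome 11 from 17933696 to 17934708, with fold enrichments of 42.0 and 37.7, was isolated, with no other site within 136369 bp. That on chromosome 2 from 36215706 to 36216647, with 42.6 and 37.1, had a neighbour 421 bp away. The site on chromosome 1 from 4520963 to 4521930, with 38.4 and 37.4, had its closest neighbour at 6516 bp. Of the remaining ones, that of chromosome 8 (21316468 to 21317491) was 1024 bp wide with a neighbour at 2955 bp. That of chromosome 4 (11188664 to 11189550) was 887 bp wide with a neighbour at 22288 bp, and that of chromosome 17 (12028260 to 12029613) was 1354 bp wide with one at 4864 bp.

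Sites were compact. The median width was 501 bp (quartiles 399 and 648 bp) for the replicate 1 peak and 384 bp (quartiles 304 and 493 bp) for its replicate 2 partner. Chromatin had been sheared to 100 to 500 bp. The narrowest peaks were 233 bp in replicate 1 and 224 bp in replicate 2, widths shared by 905 and 842 peaks of these lists. The replicate 1 peak was the wider one at 89.5% of sites, by a median ratio of 1.27, so widths are given per replicate and not averaged. Widths over 1000 bp in replicate 1 occurred at 1749 sites (4.57%), and 400 sites exceeded 1000 bp in both replicates.

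**Figure D2:**
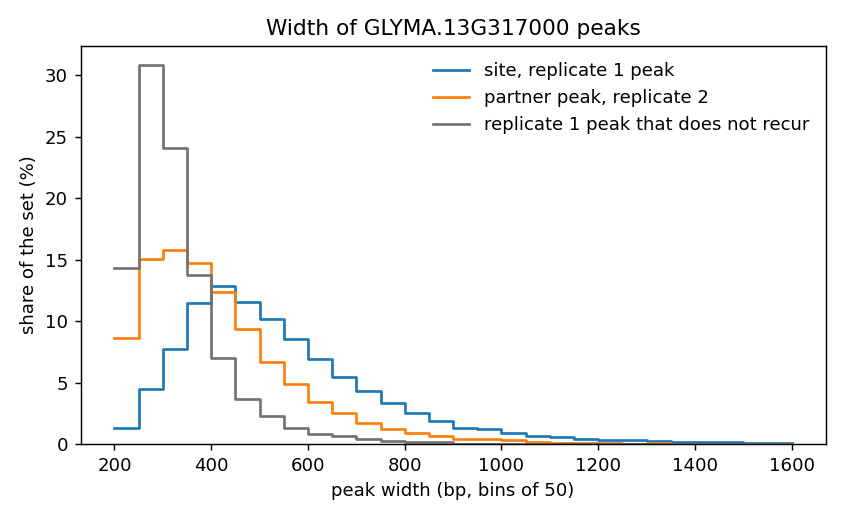
Distribution of peak width (x axis, bp, bins of 50 bp) as a share of each set (y axis, percent) for the sites, their replicate 2 partners and the replicate 1 peaks that did not recur. Sites have a median of 501 bp, partners of 384 bp and peaks that did not recur of 308 bp; the widest peaks are not drawn.

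Wider sites were also the stronger ones. The median lower fold enrichment rose from 3.48 in the narrowest decile of sites, with a median width of 292 bp, to 5.52 in the fifth decile, at 480 bp, and 10.2 in the widest, at 981 bp. The rank correlation of width with lower fold enrichment was 0.64 across the 38273 sites, and that of width in replicate 1 with width in replicate 2 was 0.73. Width and fold enrichment of a site come from the same pile of fragments and are not independent. The widest decile was also the one whose peaks were most often cut into several peaks in replicate 2, in 18.8% of cases, against 2.07% of all sites.

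The widest site departed from this relation. It lay on chromosome 13 from 38843458 to 38846651, was 3194 bp wide in replicate 1 and lay within a replicate 2 peak of 5015 bp, with fold enrichments of only 3.37 and 5.02. Its replicate summits were 3392 bp apart, as the replicate 2 peak also took in the following site, from 38846713 to 38848399, and had its summit there. The next widest had the strong enrichment usual for their width. One of 2662 bp on chromosome 1 (3714905 to 3717566) had 19.6 and 14.9, and one of the same width on chromosome 2 (2798784 to 2801445) had 17.2 and 11.8. The site on chromosome 8 from 2703120 to 2705777 was 2658 bp wide with 40.8 and 29.7, and that on chromosome 13 from 38121910 to 38124387 was 2478 bp wide with 27.7 and 31.6. Each of these 4 covered 2 separate peaks of replicate 2, and at the one on chromosome 8 the replicate summits fell on different parts of the site, 1105 bp apart.

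The replicate summits of most sites lay close together. Sites were chosen by the overlap of their peaks, which itself limits how far apart the summits can lie. Its part in the closeness was not tested. The median distance between the summits was 21 bp (quartiles 9 and 41 bp), 81.6% of sites had them within 50 bp and 95.01% within 100 bp. In 508 sites the summits fell on the same base. There was no common direction, as the replicate 2 summit lay towards the higher coordinate at 18786 sites and towards the lower at 18979, with a median shift of 0 bp. Summits were closer in stronger sites, with a median distance of 37 bp in the weakest decile by lower fold enrichment, 23 bp in the fifth and 12 bp in the strongest. The rank correlation of summit distance with lower fold enrichment was −0.29 across the 38273 sites, both measures again coming from the same peaks.

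**Figure D3:**
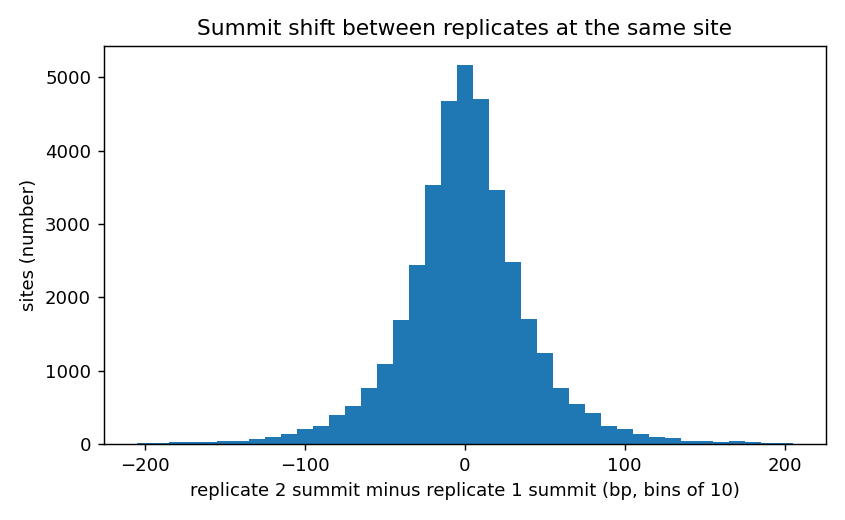
Number of sites (y axis) by the replicate 2 summit minus the replicate 1 summit (x axis, bp, bins of 10 bp, shown to 205 bp on either side). The distribution is centred on 0 bp and even on both sides; 95.01% of all sites lie within 100 bp.

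Summits over 200 bp apart were found at 676 sites (1.77%), and over 500 bp apart at 205. These sites were wide, with a median of 813 bp, and weak to moderate, with a median lower fold enrichment of 4.48. Of them, 25.1% covered more than 1 replicate 2 peak, against 2.07% of all sites. Their share was 8.49% in the widest decile of sites and 0.862% in the narrowest. It was lowest, at 0.183%, in the third decile by width.

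Within a site the summit lay close to the middle. Its median position was 49.7% of the way along the replicate 1 peak and 49.6% along the replicate 2 peak, and 71.1% of sites had it between 40 and 60% in replicate 1. The summit was a median of 27.5 bp from the middle of the replicate 1 peak and 22 bp from that of the replicate 2 peak. The share of summits between 40 and 60% did not change in a single direction with width. It was 66.1% in the narrowest decile by width and 85.9% in the second. It was highest in the third, with 92.8% at a median width of 399 bp, and fell from there to 28.3% in the widest. In only 9 of the 38273 sites did the summit fall within the outermost 10% at either edge.

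Spacing between sites covered several orders of magnitude. On the 20 numbered chromosomes, which held 38071 sites, the median gap from the end of a site to the start of the next was 8103 bp (quartiles 2725 and 20148 bp). The shortest gap was 52 bp and the longest 3.52 Mb. Gaps of up to 2000 bp came to 2086 of up to 500 bp, 2272 of 500 to 1000 bp and 3311 of 1000 to 2000 bp, while 3337 gaps (8.77%) were over 50000 bp. A neighbour within 2000 bp was found for 13601 sites (35.7%), within 5000 bp for 59.8%, and within 100000 bp for 98.8%. The share with a neighbour within 2000 bp was higher in lists with more peaks, and the cause was not tested. In the whole replicate 1 list 48.9% of peaks had a neighbour within 2000 bp, and in the whole replicate 2 list 38.2%.

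**Figure D4:**
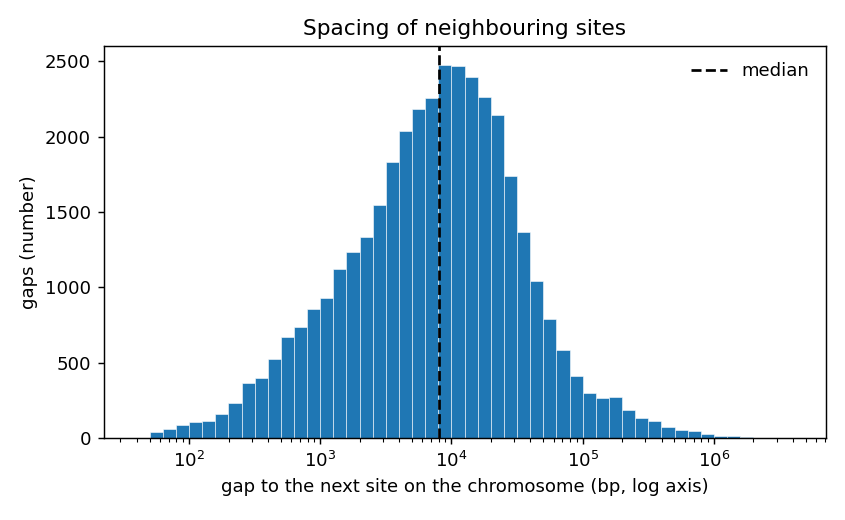
Number of gaps (y axis) by the gap between neighbouring sites (x axis, bp, log scale). The dashed line marks the median of 8103 bp; gaps run from 52 bp to 3.52 Mb.

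At short range, the spacing of neighbouring summits had a broad maximum from about 700 to 1400 bp. Counted in steps of 100 bp, each step of this range held 421 to 471 of 38051 pairs. The fullest step, 1000 to 1100 bp, thus stood out little. There were 3115 pairs with summits 700 to 1400 bp apart, and 1676 in the equally wide range from 3000 to 3700 bp. Under 500 bp there were 64 pairs, and the closest summits were 306 bp apart. Peaks within a list do not overlap, which limits how close called summits can lie; its part in the shape of this distribution was not tested.

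Sites with a close neighbour were about as strong as isolated ones. The median lower fold enrichment was 5.53 in the 4043 sites with a neighbour within 500 bp, 5.32 in the 9170 with the nearer neighbour at 2000 to 5000 bp, and 5.30 in the 1101 with none within 50000 bp. Their median widths were 519, 500 and 482 bp. The rank correlation of the gap to the nearer neighbour with the lower fold enrichment was −0.013 over 38071 sites.

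Linked by gaps of up to 2000 bp, 64.3% of sites stood alone, 9280 formed 4640 pairs, and 4321 (11.3%) were in 1292 runs of 3 or more. Runs of 7 or more were rare, with 5 of 7 sites, 2 of 8 and 1 of 12. One run of 8 lay on chromosome 6 from 21474066 to 21486124, with lower fold enrichments of 3.31 to 21.8. The other lay on chromosome 17 from 8628652 to 8640725, with 3.19 to 9.23. The longest run, of 12 sites, lay on chromosome 13 from 38823994 to 38839845, and its sites were weak, with a median lower fold enrichment of 2.54 and a range of 2.06 to 4.84. Replicate 2 peaks of 1431 and 1841 bp were each the partner of more than 1 site of this run.

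This run and the widest site belonged to the same crowded tract of chromosome 13. The window of 100000 bp from 38800001 to 38900000 held 29 sites, the most of any of 9497 windows, with a mean of 4.01 per window and no more than 22 in any other. Its sites covered 21304 bp, and 14 of the 29 had a lower fold enrichment under 3. Some neighbouring sites there had the same replicate 2 partner, with partner widths of 1141 to 5015 bp, so the sites outnumbered their partners. The strongest there were the site from 38877587 to 38878210, with fold enrichments of 13.3 and 12.1, and that from 38855519 to 38856138, with 8.97 and 8.89. Some sites of the tract had like values in replicates 1 and 2, such as 5.00 and 4.84 at 38823994 to 38824752. Others did not, such as 10.9 and 5.52 at 38884890 to 38885484. At 38857976 to 38858753 the values were 2.51 and 4.52, but its replicate 2 peak, of 1347 bp, was also the partner of the following site.

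Peaks of GLYMA.13G317000 covered 23.6% of this window in replicate 1 and 22.8% in replicate 2, with 35 and 29 peaks. Those of GLYMA.06G314400 covered 9.65% and 7.03%, with 17 and 14 peaks. Over the whole of chromosome 13 the order was not the same, with 4.39% and 2.88% for GLYMA.13G317000 and 5.61% and 4.09% for GLYMA.06G314400. The window was chosen because it is the fullest for GLYMA.13G317000, and the difference between the proteins was not tested. The next fullest windows resembled ordinary stretches more. On chromosome 11 from 3800001 to 3900000 there were 22 sites with a median lower fold enrichment of 5.41 and a median width of 465 bp. On chromosome 1 from 52700001 to 52800000, one of 5 windows with 21 sites, these values were 5.55 and 565 bp.

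Sites were concentrated in the outer parts of the chromosomes. The extent of a chromosome was taken as the end of the last peak on it in any of the 4 lists, from 34.6 Mb for chromosome 11 to 57.97 Mb for chromosome 18. The outer 20% at each end, which together make up 40% of the extent, held 68.7% of the sites, and the central 20% held 6.15%. Over chromosomes the outer share was 70.04% ± 10.8 (SD over 20 chromosomes) and exceeded 40% on 19 of 20. It was highest on chromosome 4, with 86.6%, where the central part held 1.89%. By deciles of the extent, the outermost held 7417 and 7592 sites and the sixth, the emptiest, 1009. The extent is a measure of length alone, and how much of each part can be mapped was not considered.

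Close to the very ends the density did not keep climbing. The outermost Mb at the 40 chromosome ends held 75.7 sites per Mb, the second 85.0, the fourth 80.5 and the fifth 73.8, all above the mean of 40.7 ± 8.58 sites per Mb (SD over 20 chromosomes). Peaks of replicate 1 that did not recur were placed alike, with 68.0% in the outer parts and 5.99% in the central one, so position did not separate recurrent from other peaks.

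**Figure D5:**
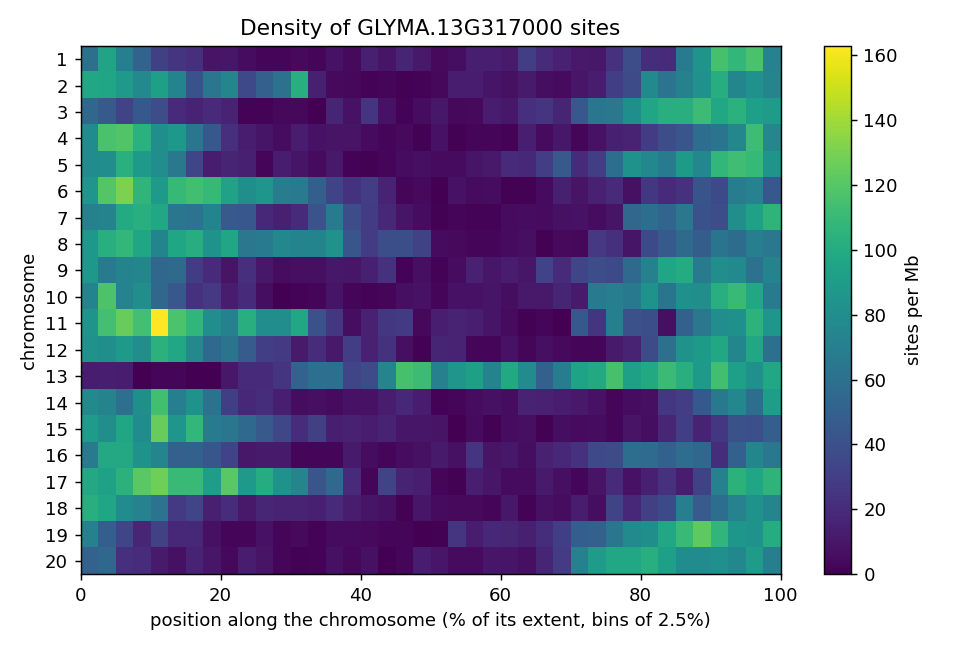
Density of sites (colour, sites per Mb) in bins of 2.5% along the extent (x axis, percent) of each of the 20 chromosomes (y axis). Most chromosomes are dense at both ends and nearly empty in the middle; chromosome 13 is nearly empty early and dense from its middle to its last end.

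Site numbers at the ends of a chromosome were often unequal. Chromosome 15 had 54.6% of its sites in the outer 20% at the low-coordinate end and 16.7% at the other end. Chromosome 19 had the reverse, 17.1% and 54.1%, as did chromosome 20, with 14.03% and 48.6%. Chromosome 2 was nearly even, with 35.6% and 35.5%. The low-coordinate end held more sites on 12 of 20 chromosomes.

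Chromosome 13 was arranged unlike the others. It had the most sites, 2823, and the highest density, 61.6 per Mb, but 1.81% of them lay in the outer 20% at its low-coordinate end. Its outer parts held 33.7% of its sites and its central part 26.8%, against 7.67% for the next highest, on chromosome 8. Its second decile held 6 sites, and from the fifth decile on every decile held between 339 and 459. Both whole lists had their highest density there as well, with 91.5 and 69.4 peaks per Mb. The lowest density of sites was 30.7 per Mb, on chromosome 18, and the fewest sites were the 1292 of chromosome 16.

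Large stretches of every chromosome held no site. The longest empty stretch of each was 1.69 ± 0.626 Mb (SD over 20 chromosomes), from 0.894 Mb on chromosome 16 to 3.52 Mb on chromosome 13, and on 19 of 20 its middle lay between 20 and 80% of the extent. The longest of all was on chromosome 13 from 6011028 to 9531021, centred at 17.0% of the extent. Only 7 peaks of replicate 1 and 2 of replicate 2 lay inside it. That on chromosome 10 from 13792023 to 16636498, of 2.84 Mb, held 4 and 0, and that on chromosome 4 from 23915489 to 26115943, of 2.20 Mb, held 6 and 0. Of the 9497 windows of 100000 bp, 2764 (29.1%) held no site. At the other extreme, 50% of the sites lay in 197 of the 956 windows of 1 Mb (20.6%), the fullest of which, on chromosome 11 from 3000001 to 4000000, held 141.

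The median width, strength and summit distance of sites varied little along and between chromosomes. By chromosome the median width ranged from 486 to 515 bp, the median lower fold enrichment from 5.16 to 5.59 and the median summit distance from 20 to 23 bp. By decile of the extent the median lower fold enrichment ranged from 5.30 to 5.70 and the median width from 486 to 510 bp; the fifth decile had the highest of both, and the outermost deciles had 5.44 and 5.41 with 505 and 501 bp. The median gap to the nearer neighbour was 2873 and 3130 bp in the outermost deciles and longer in the inner ones, with 4923, 4606, 5933 and 7296 bp in the fourth to the seventh. It did not follow the number of sites decile by decile, as the emptiest, the sixth, had a shorter gap than the seventh. Of the 1331, 1009 and 1353 sites of the fifth, sixth and seventh deciles, chromosome 13 alone held 388, 368 and 339.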

How the data were processed

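Bowtie 0.12.7 and MACS2 are listed by the submitters' processing notes. No source used here states the MACS2 version, genome build, control, or handling of duplicate or multiply mapping reads, which decide where a peak can be called. The authors deposited 1 list per precipitated sample, not pooled. Each deposited peak has a fold enrichment (a ratio), a −log10 p, a −log10 q, a score of 10 times −log10 q, and a summit. Fold enrichments are each list's own values. They were used to describe, rank and filter peaks within a list, are given side by side for both replicates, and their lower value ranks the sites; differences between the lists in scale were not adjusted. Depth is unknown, so no intervals are given.

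Overlaps, widths, gaps (end to start) and positions (by summit, 1-based) were computed with Python 3.11.15, numpy 2.4.6 and pandas 2.3.3. A site's partner was the replicate 2 peak of largest overlap. Pairing was tested on simulated lists and checked by direct comparison on chromosome 16 (2033 of 2033 peaks alike).

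Members and limits were chosen with earlier results of these data known. The naming rule took the 10 strongest and 5 widest sites, 3 fullest windows, 3 longest empty stretches, 3 longest runs, 5 strongest peaks that did not recur, 2 peaks on either side of the overlap limit, and all chromosomes. Apart from the widest, the 6 sites named singly within the fullest window were chosen after their values were seen. The gene table at hand, with 0 of 59048 genes carrying the identifier, was not used.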

Additional observations from a re-analysis of the deposited data

How the results depend on the processing

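Of 112 alternative values for 12 results, 81 stayed within the spread between replicates and 31 moved. For counts the limit was 1.5 times, and for summit distance the SD over chromosomes. Otherwise the spread was an SD of 2 values, often of the single lists that were also among the alternatives. Some settings could hardly move a result. An overlap of at least 1 bp gave 38306 sites against 38273, and the extent from this protein's lists alone left the outer and central shares unchanged. The tally is therefore no measure of robustness. A fold enrichment of at least 5 in both lists left 21268 sites, with a median width of 589 bp, summit position of 0.498 of the width, summit distance of 17 bp, gap of 15573 bp and lower fold enrichment of 7.94. It gave 22.3% with a neighbour within 2000 bp, 68.6% in the outer parts, 6.23% in the central part, 22.6 sites per Mb and a median longest empty stretch of 2111420 bp. Replicate 2 coordinates gave a width of 382 bp, a summit position of 0.496, a summit distance of 22 bp and 93.3% recurrence. For recurrence the spread was wide, at 19.3, as it was the SD of 65.9% for replicate 1 peaks and 93.3% for replicate 2 peaks. The 82.6% with lists of equal length therefore counted as within it. Single lists, without replicate 1 or without replicate 2, gave 41859 to 58036 peaks, widths of 373 to 422 bp, summit positions of 0.496 to 0.497, gaps of 4913 to 7342 bp, 38.2% to 48.9% with a neighbour, 68.5% to 68.6% in the outer parts, 44.5 to 61.6 per Mb and longest empty stretches of 1085680 to 1525783 bp. They give no recurrence, summit distance or lower fold enrichment. A neighbour was found for 21.3% of sites within 1000 bp and 59.8% within 5000 bp. Summit distance was 20 bp with summits within 100 bp and 20 bp with lists of equal length. Without chromosome 13, chosen after seeing the data, 71.5% lay in the outer and 4.49% in the central parts. Counts, widths, gaps and densities thus depend on the threshold and list, while the outer share ranged from 68.5% to 71.5%. The cause was not tested. No paired analysis was possible because the results describe the 2 lists of 1 protein and come from no test between groups. The unknown depth limits what a missing peak can show.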

Other observations

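Outside the numbered chromosomes, 202 sites lay on 44 scaffolds, and 67 of them were on a single scaffold. A total of 791 sites covered more than 1 replicate 2 peak, 770 of them 2 and 21 of them 3, while 36 replicate 2 peaks were the partner of more than 1 site. Sites covered 21.1 Mb in all, and those on the numbered chromosomes made up 2.22% of the extent. At 113 sites the fold enrichment was under 3 in both replicates.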
